A study of Mus musculus with 8 samples.

Results

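The mitochondrial dynamics and biogenesis genes described here are 10 nuclear genes whose proteins divide, fuse, copy or build mitochondria: Dnm1l, Fis1 and Mff (fission), Opa1, Mfn1 and Mfn2 (fusion), Tfam and Polg (mitochondrial DNA upkeep), and Ppargc1a and Nrf1 (biogenesis). They were chosen by name, as the genes that a RefSeq accession on the array ties to these symbols, and the rule that selects them uses no measured value, although earlier results of these data were known when they were listed. They were read by 22 of the 56605 non-control probes and are 10 of the 22911 genes that the probes could be named for. The RNA came from pancreatic islets of 11-week-old mice in which both groups carried Fbln5-floxed alleles, with 4 RNA extractions of 150 islets each per group. In the βFbln5KO group the floxed alleles were combined with an Ins1-cre transgene, in which the mouse insulin 1 promoter drives Cre in β-cells. The controls carried the floxed alleles without Cre, and no group with Cre alone was on these arrays. Whether the islets of an extraction came from 1 mouse or were pooled is not given in the sources used here, so the p-values cover the spread between extractions. The RNA of these genes was compared between islets labelled βFbln5KO and control islets, where the targeted gene Fbln5 encodes a secreted extracellular matrix protein.

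Mitochondria form a network that is cut and joined all the time. Drp1, the GTPase that Dnm1l encodes, is drawn to the outer membrane by receptors such as Mff and Fis1 and constricts the organelle, while Mfn1 and Mfn2 join outer membranes and Opa1 joins inner membranes and holds the cristae in shape. The small mitochondrial genome is packed by Tfam and copied by Polg, and new mitochondrial mass is called for by the coactivator PGC-1α (Ppargc1a), which works with nuclear factors such as NRF1 and GABP. In β-cells, mitochondrial ATP closes potassium channels and so starts insulin release, and mice that lack Opa1 or Tfam in β-cells have defective insulin secretion.

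All values below are log2 processed signals minus the 75th percentile of their array, so 0 is the level that 75% of spots lie below, and a difference of 1 between groups is a doubling. Levels of different probes are not compared, since probes differ in brightness for reasons other than RNA amount. The 8 arrays shared 1 slide and 1 scan, with control arrays in 1 row of the slide and βFbln5KO arrays in the other, and the effect of the row cannot be told apart from that of genotype. The share of spots well above background was 56.6% to 58.8% in control and 52.6% to 56.6% in βFbln5KO arrays, and probes that were dim on all 8 arrays were higher in βFbln5KO islets by a median of 0.47. The brightest probe of each of the 10 genes was well above background on all 8 arrays. Counting only probes that stood well above background on each of the 8 arrays, pairs of arrays correlated between 0.983 and 0.994. The targeted gene, Fbln5, gave −1.70, −1.32, −2.05 and −1.83 in control and −2.74, −2.40, −2.38 and −1.37 in βFbln5KO islets. βFbln5KO replicate 4 lay within the control values while the other 3 lay below all of them, and the log2 difference of −0.50 (SE 0.29) had an adjusted p of 0.342 by limma and an unadjusted p of 0.171 by an exact two-sided permutation test. Without that array the difference was −0.78 with an adjusted p of 0.0227 by limma.

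The sequences below are the 250 bases before a RefSeq start site of 3 of the 10 genes (GRCm38.p6), shown to give the regulatory context in which these genes are usually discussed: 1 holds the NRF1 motif, 1 the GABP motif and 1 part of the cyclic AMP response element. They are written 5′ to 3′ on the gene's own strand, and capitals mark the motif. Opa1 lies at chr16:29579084-29579333 on the plus strand, Tfam at chr10:71238045-71238294 on the minus strand and Ppargc1a at chr5:51567726-51567975 on the minus strand, and since RefSeq lists other transcripts that start elsewhere, each stretch lies partly or wholly within the full span of its gene.
Opa1: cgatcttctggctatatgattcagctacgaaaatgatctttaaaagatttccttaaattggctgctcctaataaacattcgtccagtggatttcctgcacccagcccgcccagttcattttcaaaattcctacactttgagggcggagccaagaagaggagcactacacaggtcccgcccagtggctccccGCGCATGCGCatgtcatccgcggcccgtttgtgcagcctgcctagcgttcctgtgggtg
Tfam: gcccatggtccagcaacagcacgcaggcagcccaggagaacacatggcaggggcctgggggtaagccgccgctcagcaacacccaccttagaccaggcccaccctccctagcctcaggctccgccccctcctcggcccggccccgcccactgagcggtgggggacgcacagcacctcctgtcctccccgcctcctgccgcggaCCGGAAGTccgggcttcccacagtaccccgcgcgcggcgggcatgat
Ppargc1a: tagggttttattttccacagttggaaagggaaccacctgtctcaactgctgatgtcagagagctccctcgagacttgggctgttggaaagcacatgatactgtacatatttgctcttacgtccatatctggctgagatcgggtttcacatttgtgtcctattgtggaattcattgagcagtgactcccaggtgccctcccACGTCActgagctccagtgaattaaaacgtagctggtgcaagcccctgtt
Each motif was searched on both strands in windows of 300 bases, from 250 before to 50 after the start, and all 10 genes had such a window. The NRF1 core, GCGCA followed at once by its reverse complement TGCGC, was found for 1 of the 10 genes, Opa1, and for 1.07% of all 27025 genes with a window. The ETS motif bound by GABP, CCGGAAGT, was found for 4 of the 10 genes (Fis1, Mfn1, Tfam and Polg) and for 4.31% of all genes. The cyclic AMP response element, TGACGTCA, was found for none of the 10 genes and for 2.03% of all genes. Its short form TGACGT, which lies inside the full element, was found for Mfn2 and Ppargc1a and for 8.37% of all genes, and in Ppargc1a it reads on the opposite strand (ACGTCA). A match of letters is a description and not a binding site.

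None of the 10 genes passed a test of the difference between βFbln5KO and control islets, and the fitted differences of their brightest probes ran from −0.040 (Mff) to 0.087 (Tfam). By limma, 0 of the 10 brightest probes passed an adjusted p of 0.05, where 0.0106% of all probes did (6 of 56605). Without βFbln5KO replicate 4 that count over all probes rose to 11206 higher and 338 lower, with 0 of the 10 genes among them, where 0.667% of the 13650 named genes whose brightest probe was well above background on all 8 arrays passed it (91 genes). At an unadjusted p of 0.05 the count was also 0 of 10, by limma and by the methods' t-test, where limma placed 4.09% of the same 13650 genes past it. In 10 of 10 genes the groups overlapped; they did not overlap for 2.81% of those 13650 genes. The fitted difference was above 0 in 6 genes and below 0 in 4, with a median of 0.011 beside −0.0082 for the 13650 genes.

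**Figure D1:**
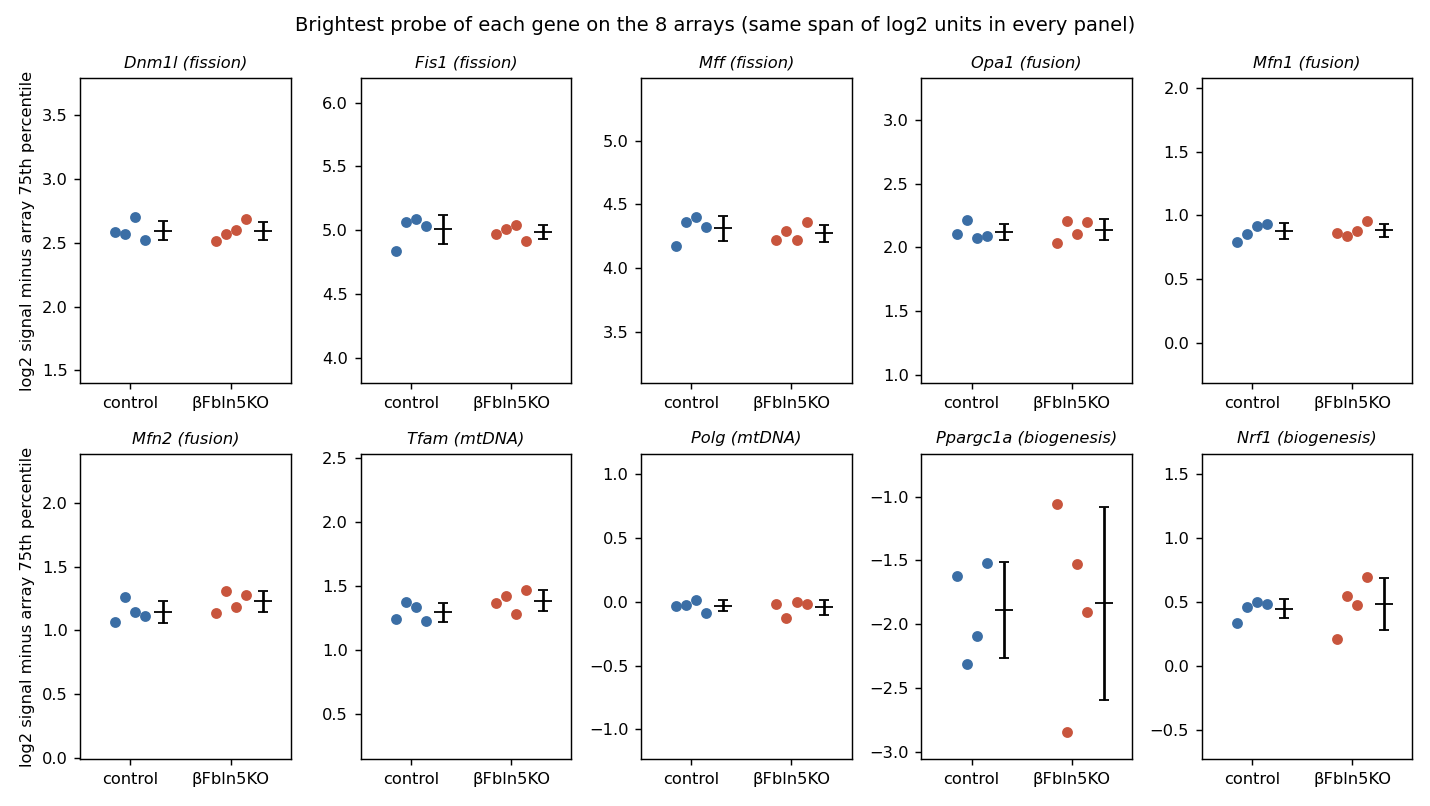
Log2 processed signal minus the array's 75th percentile (vertical axis) for the brightest probe of each of the 10 genes, with a point per array, control and βFbln5KO side by side, and bars at the mean ± SD of each group (n = 4 arrays); all panels span the same number of log2 units. The groups overlap in all 10 genes, and the Ppargc1a points spread over 1.78 log2 units while no other gene spreads over more than 0.49.

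None of the fission genes passed the test. Dnm1l (chr16:16312228-16359038, the RefSeq gene span in GRCm38.p6, as for the genes below), which encodes the GTPase that constricts the organelle, gave 2.58, 2.57, 2.70 and 2.53 in control and 2.52, 2.57, 2.60 and 2.69 in βFbln5KO islets. Low and high arrays occurred in both groups, and the group means were 2.59 ± 0.076 and 2.59 ± 0.071 (SD, n = 4). The 95% interval of the difference ran from −0.13 to 0.13, with an adjusted p of 0.9997 by limma and an exact permutation p of 1. Fis1 (chr5:136953275-136966234), an outer membrane protein that takes part in fission, gave 4.84, 5.07, 5.09 and 5.03 in control and 4.97, 5.01, 5.05 and 4.92 in βFbln5KO islets. The 4 βFbln5KO values all lay inside the control range, whose low end was control replicate 1, and the difference was −0.021 (SE 0.070, adjusted p 0.907 by limma, exact permutation p 0.771). Mff (chr1:82724890-82752390), the receptor that recruits Drp1 to the outer membrane, gave 4.17, 4.36, 4.40 and 4.32 in control and 4.22, 4.29, 4.22 and 4.36 in βFbln5KO islets. Its βFbln5KO values also lay inside the control range, with a difference of −0.040 (SE 0.064, adjusted p 0.788 by limma, exact permutation p 0.571).

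The fusion genes did not pass the test either. Opa1 (chr16:29579281-29663127), the inner membrane GTPase whose promoter holds the NRF1 core, gave 2.11, 2.22, 2.08 and 2.09 in control and 2.04, 2.21, 2.11 and 2.20 in βFbln5KO islets. High and low arrays occurred in both groups, and the difference was 0.015 (SE 0.056, adjusted p 0.918 by limma, exact permutation p 0.8286). Mfn1 (chr3:32529443-32579225), which tethers and fuses outer membranes, gave 0.79, 0.86, 0.92 and 0.93 in control and 0.86, 0.84, 0.88 and 0.95 in βFbln5KO islets. Both groups covered nearly the same span, with a difference of 0.0062 (SE 0.051, adjusted p 0.965 by limma, exact permutation p 0.8286). Mfn2 (chr4:147873586-147904909), which also tethers mitochondria to the endoplasmic reticulum, gave 1.06, 1.26, 1.15 and 1.11 in control and 1.14, 1.31, 1.18 and 1.28 in βFbln5KO islets. Replicate 2 was the highest array in each group, the ranges overlapped between 1.14 and 1.26, and the difference of 0.083 (SE 0.061) had an adjusted p of 0.485 by limma and an exact permutation p of 0.200.

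Of the genes that keep mitochondrial DNA, Tfam had the greatest fitted difference among the 10 brightest probes, and it did not pass the test. Tfam (chr10:71225468-71238328), which coats the mitochondrial genome and starts its transcription, gave 1.24, 1.38, 1.34 and 1.22 in control and 1.36, 1.42, 1.28 and 1.47 in βFbln5KO islets. In βFbln5KO islets 2 arrays lay above all control values and the other 2 lay among them. The difference was 0.087 (SE 0.059, 95% interval −0.046 to 0.22), or 1.06-fold, with an adjusted p of 0.434 by limma and an exact permutation p of 0.171. Polg (chr7:79446231-79467911), the catalytic subunit of the mitochondrial DNA polymerase, gave −0.030, −0.025, 0.016 and −0.088 in control and −0.021, −0.13, 0.00031 and −0.018 in βFbln5KO islets. Replicate 2 of βFbln5KO lay below every other array, and the difference was −0.011 (SE 0.053, adjusted p 0.940 by limma, exact permutation p 0.714).

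The biogenesis regulators Ppargc1a and Nrf1 were the 2 genes with the widest spread among extractions. Ppargc1a (chr5:51454249-52115853), the coactivator that drives oxidative gene programs, gave −1.62, −2.31, −2.09 and −1.52 in control and −1.06, −2.84, −1.53 and −1.91 in βFbln5KO islets. The highest and the lowest of the 8 arrays, replicates 1 and 2, were both βFbln5KO, and they stood 3.44-fold apart. The group means were −1.89 ± 0.38 and −1.83 ± 0.76 (SD, n = 4), and the difference of 0.052 (SE 0.36) had an adjusted p of 0.957 by limma and an exact permutation p of 0.886. Its 95% interval ran from 0.590-fold to 1.82-fold, so changes within these limits were not excluded for this gene with 4 arrays per group. The sign of the fit turned when any of 4 arrays was left out, with differences of −0.21 without βFbln5KO replicate 1, −0.090 without control replicate 2, −0.049 without βFbln5KO replicate 3 and −0.017 without control replicate 3. Without βFbln5KO replicate 2 it was 0.39, with an adjusted p of 0.444 by limma. Nrf1 (chr6:30047985-30153458), the nuclear respiratory factor that binds the NRF1 motif, gave 0.34, 0.46, 0.50 and 0.49 in control and 0.21, 0.55, 0.47 and 0.70 in βFbln5KO islets. The βFbln5KO arrays held both the lowest and the highest value, and the difference was 0.036 (SE 0.099, adjusted p 0.886 by limma, exact permutation p 0.771). The Nrf1 difference was 0.13 without βFbln5KO replicate 1, −0.036 without βFbln5KO replicate 4 and −0.00084 without control replicate 1.

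**Figure D2:**
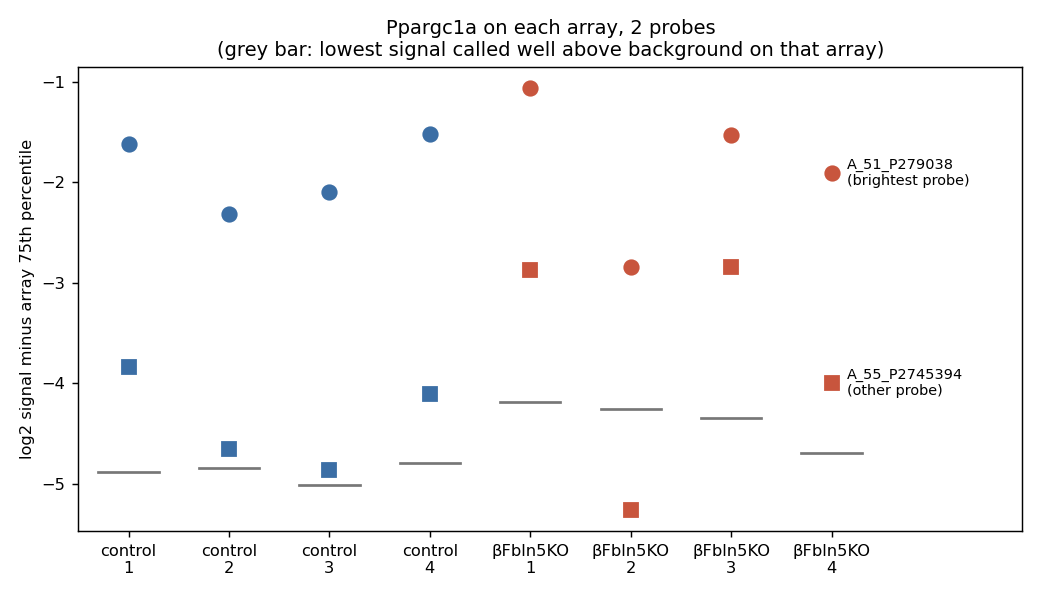
Log2 processed signal minus the 75th percentile (vertical axis) on each of the 8 arrays (horizontal axis) for both Ppargc1a probes, the brightest as circles and the other as squares, with a grey bar at the lowest signal called well above background on each array. On both probes βFbln5KO replicate 2 is the lowest array, at −2.84 and −5.26, and βFbln5KO replicate 1 lies above all 4 control arrays.

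Without Ppargc1a, the brightest probes of the other 9 genes were held within narrow limits. Their differences ran from −0.040 to 0.087, and every one of their 95% intervals lay between 0.877-fold and 1.20-fold, with Nrf1 giving both ends. Changes inside an interval were not excluded at this number of arrays. Some other probes of these genes that were well above background on all 8 arrays had wider intervals, up to 0.795-fold to 1.31-fold for an Nrf1 probe. The standard deviation within groups lay between 0.052 (Polg) and 0.16 (Nrf1), and for 8 of the 9 it was below 0.13, the median of the 13650 genes. Ppargc1a, at 0.60, had a higher standard deviation than 97.1% of them. The comparison pooled genes of every signal level and was not matched for it.

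**Figure D3:**
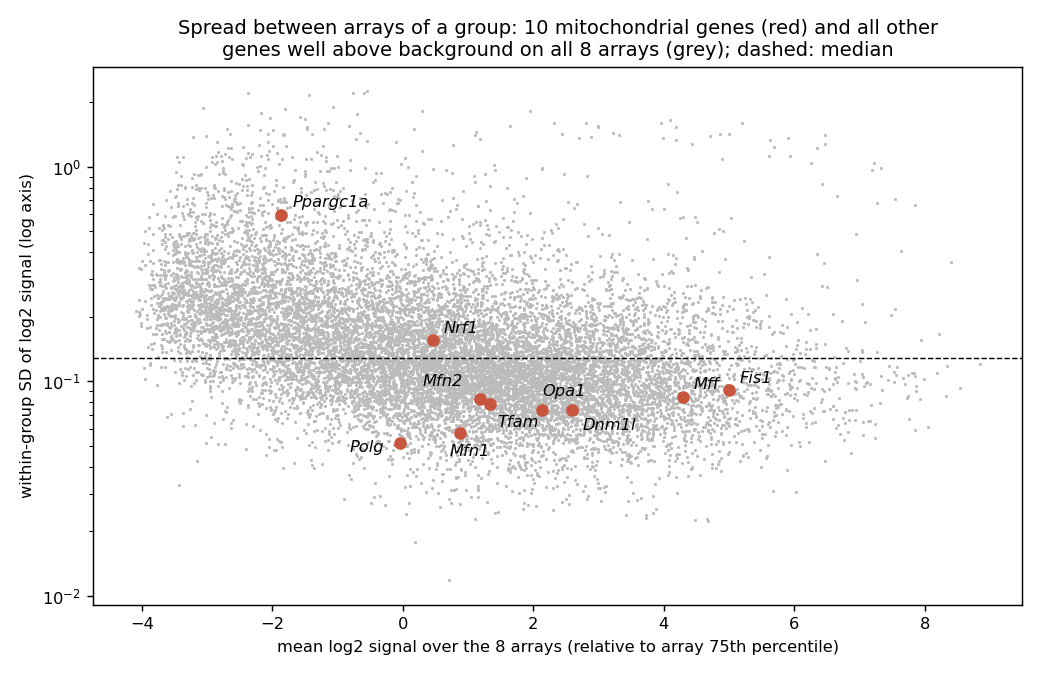
Standard deviation within groups (vertical log axis, log2 units) against mean log2 signal over the 8 arrays (horizontal axis) for the 13650 named genes that were well above background on all arrays, with the 10 genes in red and a dashed line at the median. Ppargc1a lies at 0.60, above 97.1% of the genes, and 8 of the other 9 lie below the median of 0.13.

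The profile of Ppargc1a over the 8 arrays was most like those of Asah2, Kank1 and Arhgef39. Likeness was the root mean square distance over the 8 arrays between log2 signals each centred on its own mean, which was 0.22, 0.24 and 0.24 for these genes among 13551 compared. Asah2, a neutral ceramidase, was lowest on control replicate 2 at −1.40 and on βFbln5KO replicate 2 at −1.22, and Ppargc1a was lowest on the same arrays, a likeness that the choice of these genes fixed. Kank1, a regulator of the actin cytoskeleton, was likewise lowest on both replicates numbered 2, at 0.40 and 0.31.

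The array hybridised to βFbln5KO replicate 4, which also had the highest Fbln5 signal of its group, held 8 of the 10 genes above their own mean over the 8 arrays. The count was 2 of 10 on control replicate 1, 3 on βFbln5KO replicate 1 and 5 or 6 on the remaining 5 arrays. Of the 13650 genes, 51.9% lay above their own mean on βFbln5KO replicate 4, 37.5% on control replicate 1 and 37.4% on βFbln5KO replicate 1. The median deviation of the 10 genes lay between −0.091 and 0.072 on the 8 arrays, and that of the 13650 genes between −0.047 and 0.042.

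The 12 other probes read 9 of these genes again, since Dnm1l had 1 probe. The 22 probes together had 0 values marked as outliers, and 19 of the 22 were well above background on all 8 arrays. Of these 19, 0 passed an adjusted or an unadjusted p of 0.05 by limma, where 6.28% of all probes well above background on all 8 arrays passed the unadjusted one. The second probes of Fis1, Opa1, Mfn2 and Tfam gave differences of −0.044, −0.023, 0.012 and 0.059. The second probe of Mff gave 0.052 where the brightest gave −0.040, neither past the test. The other 2 probes of Polg gave −0.011 and 0.081.

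The 3 remaining probes were dim on at least some arrays. The second Ppargc1a probe gave −3.84, −4.65, −4.86 and −4.11 in control and −2.87, −5.26, −2.85 and −4.00 in βFbln5KO islets, and it was not well above background on control replicate 3 and βFbln5KO replicate 2. Replicates 1 and 3 of βFbln5KO were the highest arrays and βFbln5KO replicate 2 the lowest, so the control values fell inside the βFbln5KO range. Its difference was 0.62 (SE 0.54, 95% interval −0.62 to 1.86, adjusted p 0.576 by limma, exact permutation p 0.371). That value takes in the 2 arrays on which the probe was not well above background, so its size is uncertain. The second Mfn1 probe was well above background on control replicate 3 alone, and no difference is given for it.

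Nrf1 had 1 probe whose groups did not overlap, and it was not well above background on any array. It gave −7.02, −7.01, −7.18 and −6.96 in control and −6.34, −6.35, −6.40 and −6.84 in βFbln5KO islets, with an unadjusted p of 0.0041, an adjusted p of 0.0728 by limma and an exact permutation p of 0.0286, which is the smallest that 4 against 4 arrays can give. No fold is given for it, since no array of either group was well above background. Of the 18855 probes that were well above background on no array, 57.4% were higher in βFbln5KO islets at an unadjusted p of 0.05 and 49.5% did not overlap between the groups. The other 2 Nrf1 probes, both well above background on all 8 arrays, gave −0.13 and 0.032.

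**Figure D4:**
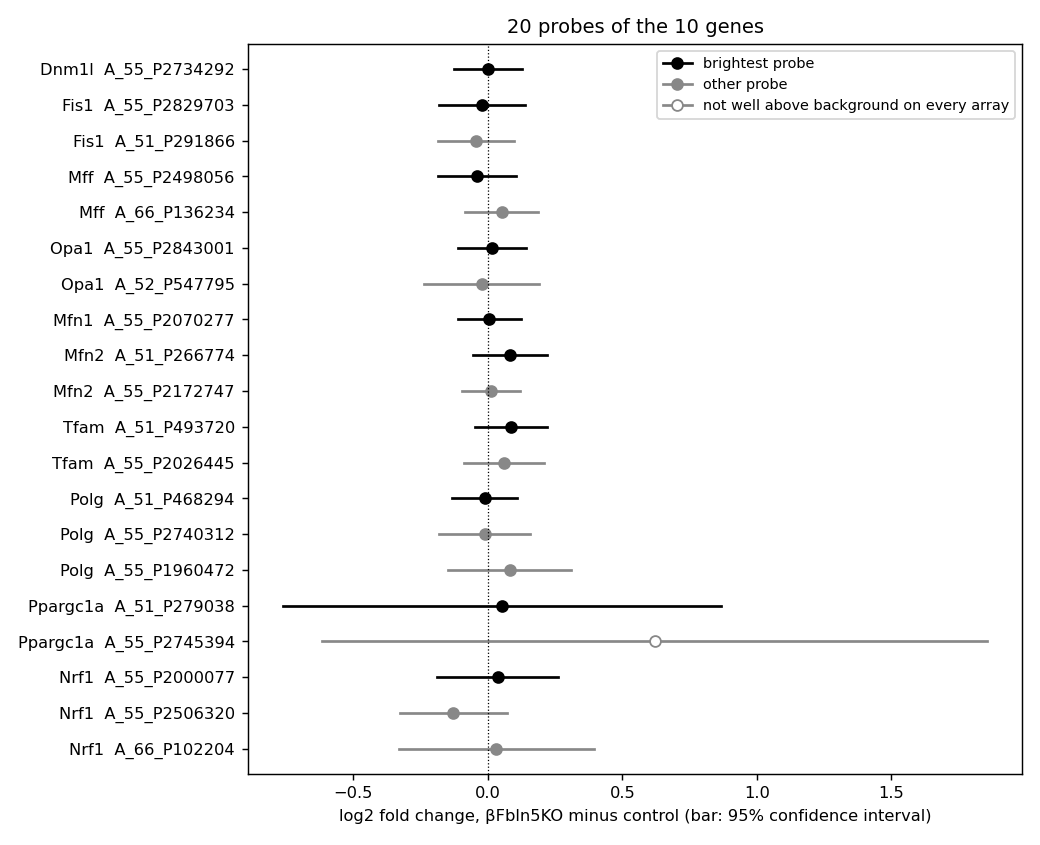
Log2 difference between βFbln5KO and control islets (horizontal axis) with its 95% interval for the probes of the 10 genes, with black for the brightest probe of a gene, grey for its others, and an open point for the Ppargc1a probe not well above background on every array. The Mfn1 and Nrf1 probes that were well above background on no βFbln5KO array are not drawn, and every interval drawn includes 0.

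The wider machinery was read from a list of 89 other genes of fission, fusion and cristae, mitochondrial DNA, biogenesis and mitophagy, all of them measured and 86 well above background on all 8 arrays. By limma 0 of the 89 passed an adjusted p of 0.05, and 0 passed an unadjusted p of 0.05 in either direction, by limma or by the methods' t-test. Over all probes 0.0106% passed the adjusted p, and of the 13650 named genes that were likewise bright on all 8 arrays 4.09% passed the unadjusted one by limma. The unadjusted count of the list was 0 to 3 with 1 array left out. It was 3 without βFbln5KO replicate 3, with 2 of them among the 86 bright genes (2.33%), where 3.70% of the 13650 passed. It was 7 when each gene was read by its probe with the largest change, all of them among the 86 bright genes (8.14%), where 9.39% of the 13650 passed under the same choice. The fitted difference was above 0 in 40 genes and below 0 in 49, with a median of −0.011. By role, the median was −0.021 over 13 fission genes, −0.0054 over 22 fusion and cristae genes, −0.0051 over 27 mitochondrial DNA genes, −0.0059 over 19 biogenesis genes and −0.027 over 8 mitophagy genes. Of the 86 bright genes, 76 had a 95% interval within 0.75-fold and 1.33-fold.

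The adaptors that hand Drp1 to the outer membrane, Mief1 and Mief2, gave differences of 0.0046 and 0.071. The inner membrane proteases that cleave Opa1, Oma1 and Yme1l1, gave 0.043 and −0.011. Of the proteins that unwind, coat and transcribe mitochondrial DNA, the helicase Twnk gave −0.059, the single-strand binding protein Ssbp1 0.027, the RNA polymerase Polrmt 0.022 and its partner Tfb2m 0.0038. Gabpa, the DNA-binding subunit of GABP, whose motif stands before Tfam above, gave −0.033. These 9 genes had adjusted p-values between 0.672 and 0.987 by limma.

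Ppargc1b, the close relative of Ppargc1a, gave −1.20, −0.78, −1.01 and −0.82 in control and −1.18, −1.33, −1.11 and −1.03 in βFbln5KO islets. Control replicate 1 lay among the βFbln5KO values and the other 3 control arrays above all of them. The difference was −0.21 (SE 0.11, adjusted p 0.303 by limma, exact permutation p 0.143). The differences of the 86 bright genes ran from −0.42 for Spire1, an actin nucleator at fission sites, to 0.25 for Esrrg, a nuclear receptor, and these 2 genes were picked out after their values were seen.

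**Figure D5:**
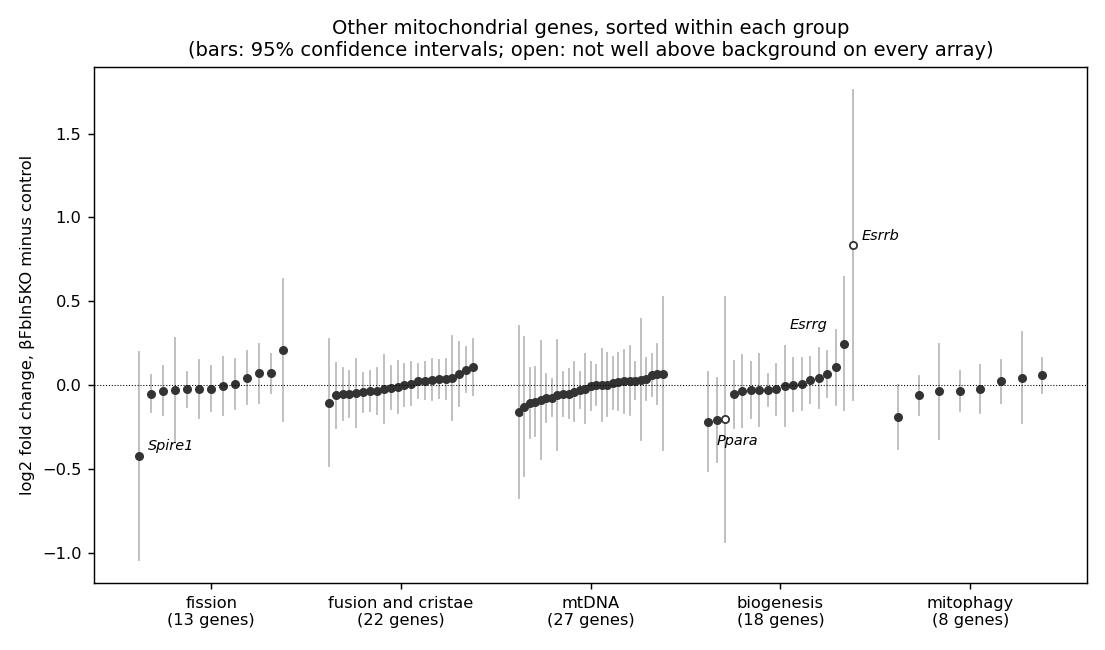
Log2 difference between βFbln5KO and control islets (vertical axis) for the brightest probe of the other mitochondrial genes of the list, without Perm1, which was well above background on no array, sorted within 5 roles along the horizontal axis, with bars for 95% intervals and open points for genes not well above background on every array. The medians of the roles, over all 89 genes, lie between −0.027 and −0.0051, and no gene passes an adjusted or an unadjusted p of 0.05 in this fit of all 8 arrays by brightest probe.

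In whole islets, fewer cells of a type and less RNA per cell cannot be told apart, so the makeup of the extractions is given beside these results. All 10 β-cell markers stood well above background throughout, and their summed level, relative to the 75th percentile, spanned 1316 to 1589 in control and 1276 to 1333 in βFbln5KO islets, with 0 of 10 past an adjusted p of 0.05 by limma. Of 12 acinar markers, 11 were bright enough to stand above background on every array, which marks exocrine RNA in every extraction. Their sum was 1478, 1260, 3296 and 2680 in control and 1370, 837, 844 and 2047 in βFbln5KO islets, with a median difference of −0.89, and 0 of 12 passed an adjusted p of 0.05 and 1 (Cela1, lower in βFbln5KO) an unadjusted one. The lowest Ppargc1a array, βFbln5KO replicate 2, also had the lowest acinar sum, while βFbln5KO replicate 3, with nearly the same acinar sum, had 1 of the 3 highest Ppargc1a signals. The part of exocrine RNA in the spread of Ppargc1a was not tested. Of 5 markers of brown fat and muscle, tissues rich in mitochondria, Ucp1, Myh6 and Ckm were well above background on no array, while Cidea and Acta1 were well above background on all 8, with differences of −0.18 and −0.16 (adjusted p 0.591 and 0.694 by limma), the latter without βFbln5KO replicate 1, whose Acta1 spot was marked as an outlier.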

How the data were processed

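Cy3-labelled islet RNA of 4 control and 4 βFbln5KO extractions was measured on 1-colour Agilent arrays read with Agilent Feature Extraction 11.0.1.1, as the submitters' processing notes name it. For each array the authors deposited the processed signal, an intensity after background subtraction with flags for outlier spots and for spots well above background. They also deposited a table with 35553 probes, whose signal values (as deposited) were found to equal the processed signal over a constant of each array (100% of values within 0.01 log2 over 35259 probes with a single spot). It served as an alternative. The files hold a median and no mean foreground signal, so normexp used the median.

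Log2 processed signals were centred on the array's own 75th percentile over 59305 non-control spots (709 to 1012 in control, 910 to 1055 in βFbln5KO). Outlier-marked values (0.356%) were left out, no spot was saturated and replicate spots were averaged, which left 56605 probes. RefSeq accessions named 32994 of them (58.3%). A gene was reported by its brightest probe over all 8 arrays. Groups were compared with limma 3.58.1 (lmFit, eBayes with trend) run in R 4.3.3. The adjusted p follows Benjamini and Hochberg over every probe, with a threshold of 0.05, and for single values a two-sided permutation test was run over every split of the arrays (exact). Intervals are 95% intervals of the limma fit, and the small number of arrays limits them. Other software was the R package data.table (version 1.17.8), Python 3.11.15 and matplotlib 3.10.9.

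The 10 genes, the list of 89 others and the marker lists were chosen with earlier results of these data known. Named were the 10 genes with all probes, Fbln5, 10 genes of the list whatever their values, any gene of the list past an unadjusted p of 0.05 (none was), and the 3 genes nearest in profile to the gene of the 10 with the largest range. Of 10 marker lists (brown fat or muscle, mesenchymal, macrophage, endothelial, ductal, acinar, PP, δ, α and β), 0 markers passed an adjusted p of 0.05 by limma. Unadjusted, the acinar marker Cela1 was among those lower, where 6.28% of all probes well above background on all 8 arrays passed that p in either direction. Ckm passed it as higher, with no array well above background, as did 57.4% of such probes. The alternatives were normexp (offset 50), quantile normalization, testing only the probes that 4 or more arrays placed well above background, a floor for dim signals, no trend in eBayes, outlier spots kept, the replicate number as a block, the methods' t-test, the deposited table, 2 other choices of a gene's probe, and each array left out in turn. Promoter windows are RefSeq's (GRCm38.p6).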

Additional observations from a re-analysis of the deposited data

Results flagged for a closer look

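Among 66 groups of 4 arrays examined (the probes of the 10 genes, Fbln5 and the 10 genes of the list named whatever their values), 6 had an array whose gap to the nearest of the others exceeded Dixon's 95% critical value (a share of the group's range), where chance gives about 5% of groups. The second Mff probe was at 2.33 on control replicate 2, with the other control arrays between 2.10 and 2.13. The brightest Polg probe was at −0.13 on βFbln5KO replicate 2, with the others between −0.021 and 0.00031. An Nrf1 probe that was well above background on all arrays was at −1.30 on control replicate 4, with the others between −1.10 and −1.07. The Nrf1 probe that was well above background on no array was at −6.84 on βFbln5KO replicate 4, with the others between −6.40 and −6.34. Mief2 was at −1.42 on βFbln5KO replicate 2, with the others between −1.32 and −1.31. Oma1 was at −1.18 on control replicate 4, with the others between −0.82 and −0.79.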

How the results depend on the processing

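Under all 19 alternatives, 0 of the 10 genes and 0 of the listed genes that were tested (89, but 87 with the filter on dim probes and 84 in the deposited table) passed an adjusted p of 0.05, and the median difference of the 10 genes lay between −0.011 and 0.067. Of the 190 values of the 10 genes under these alternatives, 31 differed in sign from the reported value, and 1 passed an unadjusted p of 0.05. That value was from the Nrf1 probe well above background on no array, which takes the gene's place when the probe with the largest change is used. Of the listed genes, the reported 0 at an unadjusted p of 0.05 became 1 with normexp, quantile normalization or the replicate block, 3 with the mean over a gene's probes, 7 with the probe of the largest change and 0 to 3 with 1 array left out. Of all named genes well above background on all 8 arrays, 4.10%, 4.58%, 4.96%, 5.01% and 9.39% passed under the first 5 of these settings. Leaving out 1 array at a time gave Fbln5 differences between −0.78 (without βFbln5KO replicate 4, adjusted p 0.0227 by limma) and −0.33 (without βFbln5KO replicate 1), and under the other alternatives Fbln5 did not pass an adjusted p of 0.05. Over all probes, 5 were higher and 1 lower in βFbln5KO islets at an adjusted p of 0.05. Without βFbln5KO replicate 4 the counts were 11206 and 338, with eBayes without trend 6184 and 394, with the methods' t-test 82 and 5, with quantile normalization 5 and 5, with a floor on dim signals 2 and 1, and with the replicate number as a block 2 and 0. The cause was not tested. With that replicate block, Fbln5 kept its difference of −0.50 (adjusted p 0.339 by limma) and 0 of the 10 genes passed. Deviations of same-numbered arrays correlated at 0.20, 0.30, −0.22 and −0.022, and not every array correlated best with its own number. These values cannot decide whether same-numbered samples were related. The study's methods state that its mice were male littermates and name no pairs of samples. Precision is limited by 4 arrays per group, and for Ppargc1a by the spread between extractions.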
